A study of Mus musculus with 12 samples.

Results

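The 7 genes described here encode transcription factors that sensory neurons are known to use after peripheral nerve injury. They are Jun and Atf3 of the AP-1 and ATF families, the cytokine effector Stat3, the bone morphogenetic protein (BMP) effector Smad1, and the developmental growth regulators Sox11, Klf6 and Klf7. They are a list of named genes, set with earlier results of these data known, and each was found in the table by its Ensembl mouse identifier. The members are thus 7 of 9073 listed genes, and all 7 were among the 8312 genes that passed the filter on low counts.

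The study measured RNA of adult mouse dorsal root ganglion (DRG) neurons of the genotype RPL22HA+/+;Advillin-Cre+. In this RiboTag system Cre recombinase, driven by the sensory neuron gene Advillin, switches on ribosomal protein L22 with a haemagglutinin (HA) tag, and all 4 groups carry both alleles. The groups were IP shGpr151, IP control, Input shGpr151 and Input control. IP is the RNA retained by an anti-HA antibody, Input is the RNA labelled as such, and the treatment was AAV-shGpr151 (an adeno-associated virus with a short hairpin named for the orphan receptor gene Gpr151) or AAV-control. Each group has 3 columns of counts, the mice are given as adult with no age, and whether samples of a group came from different mice or cultures is not stated. The series text names cultured neurons taken after a conditioning injury of the sciatic nerve, while ganglia collected fresh are named in the extraction protocol, and no uninjured group was analysed here.

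When the peripheral axon of a DRG neuron is cut, the kinase DLK and the JNK kinases it drives signal back to the nucleus, where phosphorylated Jun pairs with Atf3 and other basic leucine zipper proteins on AP-1 and cyclic AMP response elements. Cytokines of the interleukin 6 family act through the shared receptor gp130 and JAK kinases on Stat3, and BMPs act through receptor kinases on Smad1, which enters the nucleus with Smad4. Sox11, Klf6 and Klf7 are factors of axon growth during development that are retained or switched on again in regenerating neurons.

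Columns of the same group were near copies of each other in their counts. Chi-square per degree of freedom over genes was 0.980 to 1.05 in the 12 pairs of same-group columns and 1.80 to 156 in the 54 pairs between groups. For this reason the 3 columns were added up and each group stands for 1 sample, so that no p-value is given and nothing below has a check between replicates. The summed libraries held 3285258 counts (IP shGpr151), 4245486 (IP control), 6148538 (Input shGpr151) and 6332991 (Input control). Levels are CPM, counts per 1e+06 counts of the library total, and ranges in brackets are 95% intervals that cover counting error only. They treat reads as independent, and reads made by PCR are not independent molecules, so the intervals may be too narrow even for that. A difference is a log2 ratio of summed counts on library sizes from the trimmed mean of M values (TMM). It is called higher or lower where it is at least 1.5-fold and its interval excludes 0.

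The choice of library size matters for IP against Input. Relative to library totals, TMM sizes move every log2 ratio by -2.19 in libraries labelled shGpr151 and by -2.17 in control, so directions of IP against Input are relative to that shift. On TMM sizes 2665 genes were higher and 2617 lower in IP in libraries labelled shGpr151, and on library totals 6649 were higher and 842 lower. In control these were 2537 higher and 2555 lower on TMM sizes, against 6774 and 806 on library totals. Between treatments the shift was -0.043 for IP and -0.021 for Input.

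Gpr151, the gene the hairpin is named for, had 96, 65 and 89 counts in IP shGpr151, against 107, 109 and 98 in IP control. The log2 ratio was -0.0019 (-0.25 to 0.24), so the IP library labelled shGpr151 did not have less Gpr151 than IP control. In Input it had 4, 4 and 5 counts in the library labelled shGpr151 and 10, 8 and 6 in control, and the log2 ratio, -0.86 (-1.96 to 0.17), was not called. The libraries are therefore named by their labels.

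The promoters of 4 members are shown because they hold, within 120 bases before the RefSeq gene start, a sequence of the kind that Jun and Atf3 family proteins bind. The capitals mark TGACATCA, or TGATGTCA where it lies on the other strand, and in Atf3 the shorter cyclic AMP response element core ACGTCA. Sequences run 5′ to 3′ on the gene's strand and end at the last base before the start. They are RefSeq sequences of build GRCm38.p6, at chr1:191183334-191183453 on the minus strand (Atf3), chr4:95052223-95052342 on the minus strand (Jun), chr12:27342719-27342838 on the minus strand (Sox11) and chr13:5861369-5861488 on the plus strand (Klf6).
Atf3: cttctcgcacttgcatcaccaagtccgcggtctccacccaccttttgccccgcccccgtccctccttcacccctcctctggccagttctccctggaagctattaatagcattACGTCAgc
Jun: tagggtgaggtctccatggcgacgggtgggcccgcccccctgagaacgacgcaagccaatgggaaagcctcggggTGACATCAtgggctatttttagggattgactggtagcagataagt
Sox11: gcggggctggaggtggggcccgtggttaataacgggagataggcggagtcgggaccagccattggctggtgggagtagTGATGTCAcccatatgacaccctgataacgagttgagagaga
Klf6: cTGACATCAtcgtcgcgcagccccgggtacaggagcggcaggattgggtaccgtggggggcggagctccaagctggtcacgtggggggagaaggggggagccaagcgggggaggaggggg

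TGACATCA stood 45 to 38 bases before the start in Jun, 42 to 35 bases before it in Sox11 on the other strand, and 119 to 112 bases before it in Klf6. ACGTCA stood 8 to 3 bases before the start in Atf3. Searched on both strands in the 250 bases before the start, TGACATCA was held by 3 of the 7 members and by 2.93% of 32851 RefSeq promoters, and ACGTCA by 1 member and 6.47% of promoters. The AP-1 site TGANTCA (6.75% of promoters), the full element TGACGTCA (1.55%), which contains ACGTCA, the STAT site TTCNNNGAA (7.02%) and TATAAA (12.4%) were held by 0 members. The GC box GGGCGG, a site type of Sp and Kruppel-like factors, was held by all 7 and by 32.7% of promoters, CCAAT by 5 members and 33.8% of promoters, and the E-box CACGTG by Klf6 and 6.02% of promoters. These letters were chosen after the members' promoters had been read, a match is a description of sequence and not a measured binding site, and the build differs from that of the counts.

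All 7 factors had a larger share of the library in both IP libraries than in both Input libraries. Most genes did so too, since on library totals 80% of tested genes in libraries labelled shGpr151 and 81.5% in control were called higher. On TMM sizes 6 members were called higher in IP and 1, Stat3, lower. Smad1 and Sox11 had passed the filter on low counts only through their IP columns, since too few Input columns reached its cutoff. For them a higher ratio in IP was thus favoured by the filter. Among all tested genes 32.1% were called higher and 31.5% lower on these sizes in libraries labelled shGpr151, and 30.5% and 30.7% in control. The members' median log2 ratio was 2.29 in libraries labelled shGpr151, against 0.098 for all genes, and 2.44 in control, against 0.056. In a bulk lysate, fewer cells of a type and less RNA per cell cannot be told apart.

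**Figure D1:**
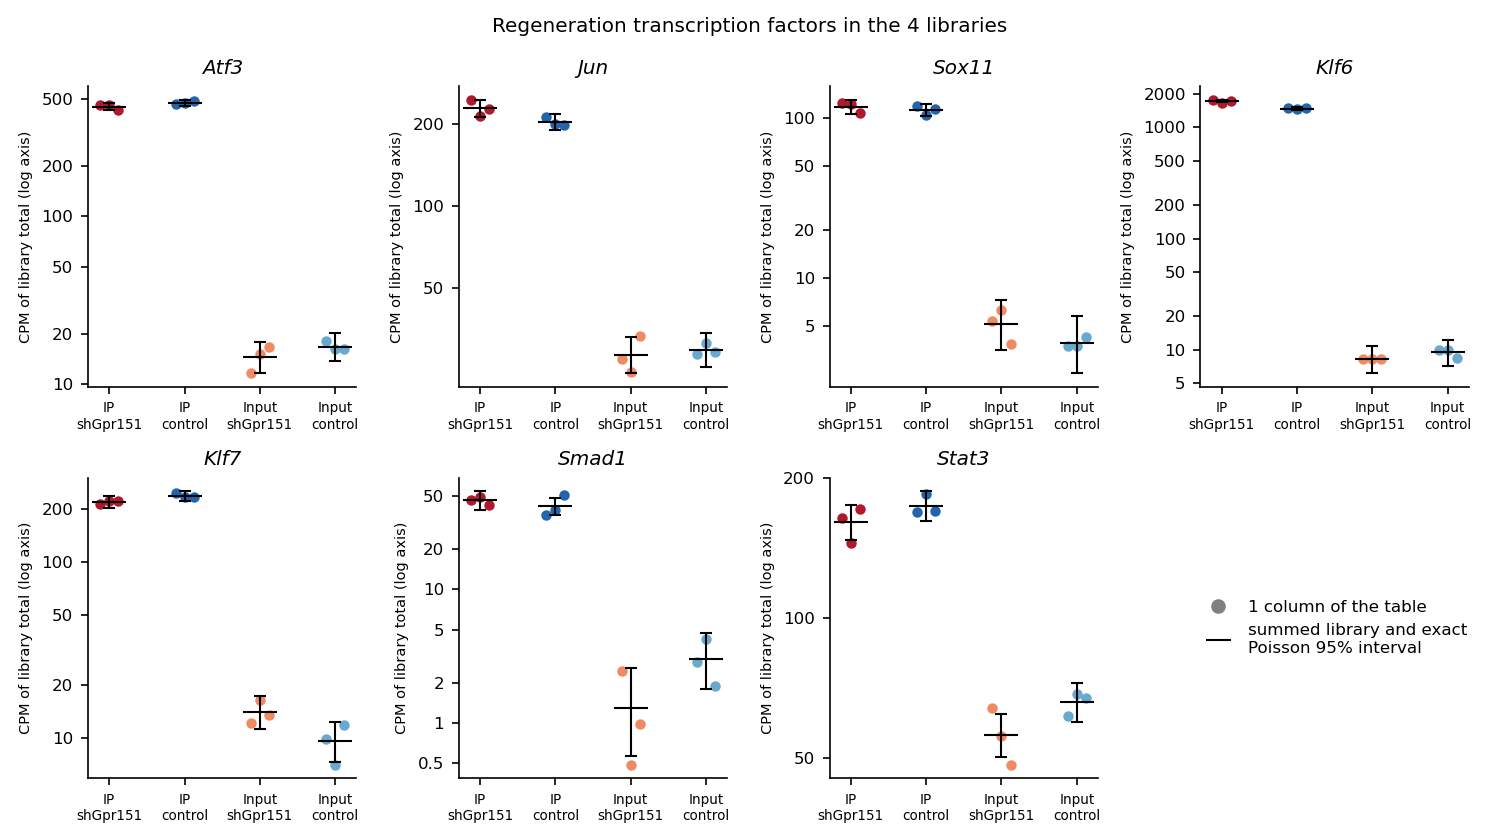
Level of each factor in CPM of the library total (log axis, 1 panel per factor) in IP shGpr151, IP control, Input shGpr151 and Input control. Dots are the 3 columns of a group and the bar is the summed library with its exact Poisson 95% interval. In every panel both IP libraries stand above both Input libraries, as holds for most genes on library totals.

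Jun (ENSMUSG00000052684), the AP-1 subunit phosphorylated by JNK, had 268, 236 and 250 counts in IP shGpr151 and 301, 283 and 281 in IP control. In Input it had 56, 50 and 68 counts in the library labelled shGpr151 and 60, 66 and 61 in control. Scaled to the library totals these were 230 CPM (213 to 246) in IP shGpr151, 204 (190 to 218) in IP control, 28.3 (24.3 to 32.8) in Input shGpr151 and 29.5 (25.4 to 34.1) in Input control. Every IP column stood above every Input column. The log2 ratio of IP to Input was 0.82 (0.59 to 1.07) in libraries labelled shGpr151 and 0.61 (0.38 to 0.85) in control, both called, and it was the smallest of the 6 positive ratios in both treatments. With a 2-fold rule, or with an assumed biological coefficient of variation of 20%, Jun was not called in either treatment.

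Atf3 (ENSMUSG00000026628), a stress-induced ATF protein that is scarce in uninjured neurons and widely used as a marker of axotomy, had 500, 506 and 470 counts in IP shGpr151 and 656, 667 and 686 in IP control. Input had 24, 31 and 34 counts of it in the library labelled shGpr151 and 38, 34 and 34 in control. Its level was 449 CPM (427 to 473) in IP shGpr151 and 473 (453 to 494) in IP control, against 14.5 (11.6 to 17.8) in Input shGpr151 and 16.7 (13.7 to 20.2) in Input control. Atf3 was thus present in all 4 libraries and high in both IP libraries. The log2 ratio of IP to Input was 2.76 (2.45 to 3.09) in libraries labelled shGpr151, or 6.78-fold, and 2.65 (2.37 to 2.94) in control, or 6.27-fold. Of all tested genes 4.44% had a higher ratio in libraries labelled shGpr151 and 3.33% in control.

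Among the genes that lead to Jun, the list of DLK-JNK signalling had 15 of 15 genes tested, of which 5 were higher and 2 lower in IP in libraries labelled shGpr151 and 4 higher and 3 lower in control. Of all tested genes 32.1% were higher and 31.5% lower in libraries labelled shGpr151, and 30.5% and 30.7% in control. These shares stand beside the counts of every list below. The list median was 0.48 in libraries labelled shGpr151 and 0.40 in control. Map2k4, which encodes the JNK kinase MKK4, was higher in IP at 3.25 (2.84 to 3.70) in libraries labelled shGpr151 and 2.94 (2.54 to 3.37) in control. Mapk8ip3, the JNK scaffold JIP3, was lower at -0.74 (-1.09 to -0.39) in libraries labelled shGpr151 and -0.62 (-0.95 to -0.29) in control on TMM sizes, and above 0 on library totals. The scaffold gene Mapk8ip2 (0.09 in libraries labelled shGpr151 and -0.27 in control) and the phosphatase gene Dusp1 (0.55 in libraries labelled shGpr151 and 0.41 in control) were not called in either treatment.

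Of 24 AP-1 and ATF/CREB relatives, 19 were tested, and 5 were higher and 6 lower in IP in libraries labelled shGpr151, against 3 and 6 in control. The list median was -0.29 in libraries labelled shGpr151 and -0.045 in control. Atf7, a constitutive ATF2 relative, was far lower in IP, at -5.90 (-6.20 to -5.62) in libraries labelled shGpr151 and -6.41 (-6.70 to -6.14) in control, with 103 and 114 counts in IP shGpr151 and IP control, against 2520 and 3214 in Input shGpr151 and Input control. Atf4, the translation-controlled factor of the integrated stress response, was at -0.24 in libraries labelled shGpr151 and 0.30 in control, and its relative Atf5 at 0.35 in libraries labelled shGpr151 and 0.07 in control, none of them called. Ddit3, the CHOP gene downstream of Atf4, was lower on TMM sizes, though above 0 on library totals, at -0.73 (-0.91 to -0.55) in libraries labelled shGpr151 and not called in control at -0.02 (-0.20 to 0.17), and this difference between the treatments was itself called, at -0.71 (-0.96 to -0.46).

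Stat3 (ENSMUSG00000004040), which is activated by gp130 cytokines after injury, had 180, 159 and 188 counts in IP shGpr151 and 239, 261 and 240 in IP control. Counts in Input were 131, 114 and 99 in the library labelled shGpr151 and 130, 145 and 142 in control. Its level was 160 CPM (147 to 175) in IP shGpr151 and 174 (162 to 187) in IP control, against 55.9 (50.2 to 62.2) in Input shGpr151 and 65.8 (59.7 to 72.5) in Input control. On library totals Stat3 had the smallest ratio of IP to Input of the members. The log2 ratio of IP to Input was -0.68 (-0.87 to -0.47) in libraries labelled shGpr151 and -0.77 (-0.94 to -0.59) in control, called lower, whereas on library totals it was 1.52 in libraries labelled shGpr151 and 1.40 in control, higher in IP. As for Jun, the call on TMM sizes was lost with the 2-fold rule and with the assumed coefficient of 20%.

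The gp130-JAK list had 15 of 22 genes tested, with 7 higher and 3 lower in IP in libraries labelled shGpr151 and 7 and 2 in control. Both receptor chains that transmit leukaemia inhibitory factor were higher in IP. Lifr was at 3.56 (3.32 to 3.82) in libraries labelled shGpr151 and 2.64 (2.44 to 2.86) in control, and Il6st, which encodes gp130, at 2.10 (1.56 to 2.68) in libraries labelled shGpr151 and 1.51 (1.04 to 2.01) in control. The kinase gene Jak1 had 1.73 (1.40 to 2.07) in libraries labelled shGpr151 and 1.61 (1.30 to 1.93) in control, and Socs3, a Stat3 target whose product inhibits the receptor, 2.06 (1.60 to 2.55) in libraries labelled shGpr151 and 2.36 (1.85 to 2.91) in control. Among the 4 tested Stat relatives 1 was called in libraries labelled shGpr151, Stat5b at 1.08 (0.14 to 2.16), and 0 in control, where Stat5b had -0.07 (-0.76 to 0.66).

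Smad1 (ENSMUSG00000031681), the receptor-activated Smad of BMP signalling, had the fewest counts of the members. It had 51, 54 and 47 counts in IP shGpr151 and 51, 55 and 72 in IP control. Counts in Input were 5, 1 and 2 in the library labelled shGpr151 and 6, 9 and 4 in control. The level was 46.3 CPM (39.2 to 54.2) in IP shGpr151 and 41.9 (36.0 to 48.6) in IP control, against 1.30 (0.562 to 2.56) in Input shGpr151 and 3.00 (1.81 to 4.69) in Input control. The IP columns overlapped between treatments, and so did the Input columns. The log2 ratio of IP to Input was 2.96 (1.94 to 4.20) in libraries labelled shGpr151 and 1.63 (0.95 to 2.40) in control, with intervals that overlap.

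In the BMP list 9 of 17 genes were tested, with 2 higher and 3 lower in IP in libraries labelled shGpr151 and 3 and 3 in control. The type 2 receptor gene Bmpr2 was higher, at 2.63-fold in libraries labelled shGpr151 and 2.15-fold in control. The BMP target genes Id1 and Id3, inhibitors of basic helix-loop-helix factors, were lower on TMM sizes, Id1 at -2.03 (-2.35 to -1.72) in libraries labelled shGpr151 and -1.23 (-1.51 to -0.94) in control, and Id3 at -1.59 (-1.69 to -1.48) in libraries labelled shGpr151 and -1.02 (-1.11 to -0.92) in control, though both genes were above 0 on library totals. Id2 was not called at -0.04 (-0.34 to 0.27) in libraries labelled shGpr151 and was higher at 0.77 (0.42 to 1.12) in control. Smad4, the shared partner of Smad1, was higher in IP at 1.42 (0.40 to 2.62) in libraries labelled shGpr151 and 1.44 (0.49 to 2.55) in control, and the TGF-beta effector gene Smad2 had 0.87 (0.10 to 1.72) in libraries labelled shGpr151, called, and 0.66 (-0.03 to 1.41) in control, not called. Smad5, a close relative of Smad1, had -0.37 (-1.24 to 0.54) in libraries labelled shGpr151 and 0.02 (-0.88 to 1.01) in control, and the inhibitor gene Smad7 0.71 (-0.52 to 2.15) in libraries labelled shGpr151 and -0.65 (-1.59 to 0.36) in control.

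Klf6 (ENSMUSG00000000078), a zinc-finger factor that promotes axon growth in zebrafish and in mouse neurons, had 1940, 1821 and 1905 counts in IP shGpr151 and 2101, 2053 and 2103 in IP control. In Input it had 17 counts in each column of the library labelled shGpr151 and 21, 21 and 18 in control. The level was 1725 CPM (1680 to 1770) in IP shGpr151 and 1474 (1437 to 1511) in IP control, against 8.29 (6.18 to 10.9) in Input shGpr151 and 9.47 (7.23 to 12.2) in Input control. Klf6 had the largest ratio of the members in both treatments. It was 5.51 (5.11 to 5.93) in libraries labelled shGpr151, or 45.4-fold, rank 15 of 8312 genes, and 5.11 (4.74 to 5.50) in control, or 34.5-fold, rank 12.

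Klf7 (ENSMUSG00000025959), needed for growth and survival of developing nociceptors, had 234, 242 and 243 counts in IP shGpr151 and 347, 329 and 328 in IP control. In Input it had 25, 34 and 28 counts in the library labelled shGpr151 and 21, 15 and 25 in control. Its level was 219 CPM (203 to 235) in IP shGpr151 and 236 (222 to 252) in IP control, against 14.2 (11.3 to 17.5) in Input shGpr151 and 9.63 (7.37 to 12.4) in Input control. In the libraries labelled shGpr151 the level was thus lower than control in IP and higher than control in Input, and neither difference was called. The log2 ratio of IP to Input was 1.76 (1.43 to 2.09) in libraries labelled shGpr151 and 2.44 (2.07 to 2.84) in control, both called.

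All 6 Kruppel-like and Sp relatives in the table, of 15 listed, were tested, and 3 were higher and 1 lower in IP in libraries labelled shGpr151, against 2 and 1 in control. Klf13 was higher at 2.74 (2.32 to 3.19) in libraries labelled shGpr151 and 2.82 (2.38 to 3.31) in control, and Klf9, a target of glucocorticoid and thyroid hormone receptors, at 1.81 (1.21 to 2.47) in libraries labelled shGpr151 and 1.71 (1.15 to 2.31) in control. Klf10, a TGF-beta early response gene, was called in libraries labelled shGpr151 at 0.75 (0.10 to 1.46) and not in control at 0.40 (-0.27 to 1.13). Sp3, a broadly expressed GC box binding factor, was lower at -1.98 (-2.42 to -1.55) in libraries labelled shGpr151 and -2.08 (-2.44 to -1.71) in control on TMM sizes, and above 0 on library totals.

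Sox11 (ENSMUSG00000063632), a SoxC factor of developing neurons that is induced by axotomy, had 135, 133 and 116 counts in IP shGpr151 and 167, 146 and 161 in IP control. Input columns held 11, 13 and 8 counts in the library labelled shGpr151 and 8, 8 and 9 in control. The level was 117 CPM (105 to 129) in IP shGpr151 and 112 (102 to 122) in IP control, against 5.20 (3.56 to 7.35) in Input shGpr151 and 3.95 (2.55 to 5.83) in Input control. Columns of the treatments overlapped in IP and in Input. The log2 ratio of IP to Input was 2.29 (1.77 to 2.86) in libraries labelled shGpr151 and 2.65 (2.07 to 3.29) in control, both called.

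Sox4, the other SoxC gene tested, had 0.89 (0.41 to 1.39) in libraries labelled shGpr151, called, and 0.43 (-0.02 to 0.90) in control, not called. Sox10, which defines peripheral glia, was lower in IP at -1.28 (-1.68 to -0.88) in libraries labelled shGpr151 and -1.63 (-1.97 to -1.28) in control on TMM sizes, and above 0 on library totals. Sox2 and Sox9, which glial cells also express, were higher in IP, Sox2 at 1.38 (0.74 to 2.08) in libraries labelled shGpr151 and 0.63 (0.10 to 1.19) in control, and Sox9 at 1.82 (0.96 to 2.82) in libraries labelled shGpr151 and 2.12 (1.09 to 3.37) in control. All 4 tested Sox relatives of the 9 listed are thus named, and 3 were higher and 1 lower in libraries labelled shGpr151, against 2 and 1 in control.

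**Figure D2:**
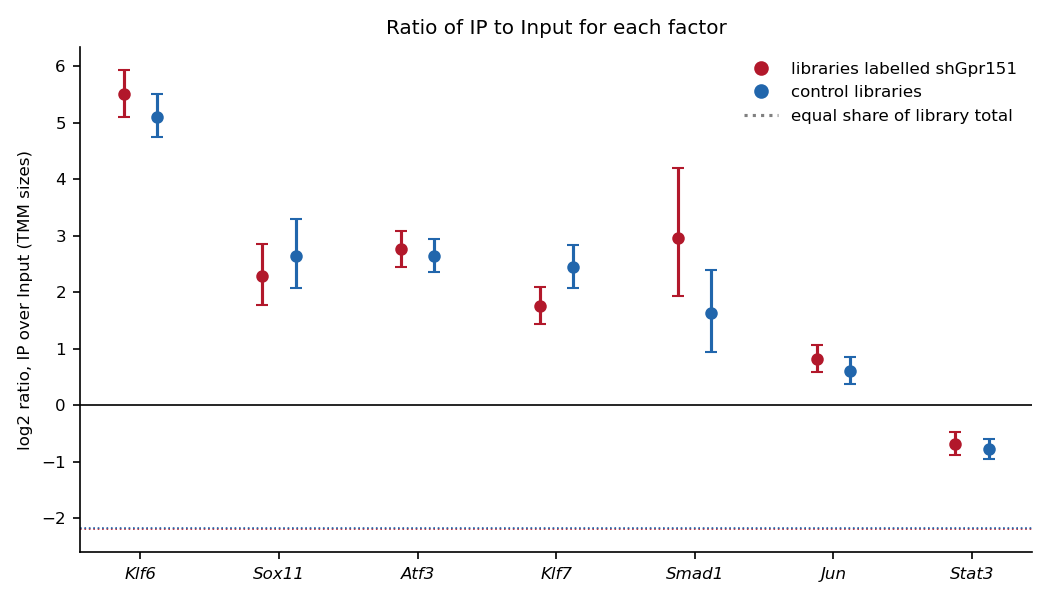
Log2 ratio of IP to Input on TMM library sizes (vertical axis) for the 7 factors, in libraries labelled shGpr151 (red) and in control (blue), with 95% counting intervals. The solid line at 0 is no difference on TMM sizes and the dotted lines at -2.19 and -2.17 are where an equal share of the library total would lie; Klf6 stands alone at the top and Stat3 is the only factor under 0.

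The order of the ratios of IP to Input was Klf6, Smad1, Atf3, Sox11, Klf7, Jun and Stat3 in libraries labelled shGpr151, and Klf6, Sox11, Atf3, Klf7, Smad1, Jun and Stat3 in control. In the libraries labelled shGpr151 the steps from Smad1 to Atf3, from Atf3 to Sox11 and from Sox11 to Klf7 were within counting error. The steps from Klf6 to Smad1, at 2.55 (1.45 to 3.65), from Klf7 to Jun, at 0.93 (0.53 to 1.33), and from Jun to Stat3 were not. In control the steps from Sox11 to Atf3 and from Atf3 to Klf7 were within counting error. The steps from Klf6 to Sox11, at 2.46 (1.77 to 3.15), from Klf7 to Smad1, at 0.81 (0.04 to 1.59), from Smad1 to Jun, at 1.02 (0.30 to 1.74), and from Jun to Stat3 were not. The members' ends, Klf6 at the top and Jun above Stat3 at the bottom, stood in the same places in both treatments.

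The tag should mark ribosomes of sensory neurons, and markers of these and of other cells were read in the same libraries. Sensory neuron markers (17 of 18 in the table) summed to 17534 CPM in IP shGpr151 and 18063 in IP control, against 1322 in Input shGpr151 and 1139 in Input control, and 16 of 17 were called higher in IP in each treatment. The one not called was Avil, the Advillin gene itself, at 0.10 in libraries labelled shGpr151 and 0.37 in control. Satellite glia markers (10 of 10) summed to 3091 CPM in IP shGpr151 and 2995 in IP control, against 840 in Input shGpr151 and 913 in Input control, and 5 were higher and 3 lower in IP in libraries labelled shGpr151, against 4 and 4 in control. Schwann cell markers (8 of 10) summed to 1405 CPM in IP shGpr151 and 1485 in IP control, against 385 in Input shGpr151 and 453 in Input control. Of 7 tested, 3 were higher and 4 lower in each treatment.

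Macrophage markers (11 of 14) summed to 569 CPM in IP shGpr151 and 542 in IP control, against 496 in Input shGpr151 and 466 in Input control, with 1 higher and 9 lower in IP in each treatment on TMM sizes. Fibroblast markers (7 of 8) summed to 843 CPM in IP shGpr151 and 675 in IP control, against 307 in Input shGpr151 and 361 in Input control, with 4 higher and 1 lower in libraries labelled shGpr151 and 2 and 1 in control. Endothelial and mural markers (7 of 10) summed to 350 CPM in IP shGpr151 and 362 in IP control, against 226 in Input shGpr151 and 170 in Input control, with 1 of 6 tested higher and 3 lower in each treatment. None of the 5 erythroid markers were in the table, and no listed marker is at 0, since the table holds only genes counted in all 12 columns. On library totals the summed share of each other cell type in the table was thus larger in IP, by less than that of sensory neuron markers. Most tested genes, 80% in libraries labelled shGpr151 and 81.5% in control, were also called higher on library totals. On TMM sizes the medians of Schwann cell, macrophage, and endothelial and mural markers were under 0 in both treatments. The fibroblast median was above 0 in both, and that of satellite glia was 1.00 in libraries labelled shGpr151 and -0.39 in control. The part of these other cell types in the members' ratios was not tested.

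**Figure D3:**
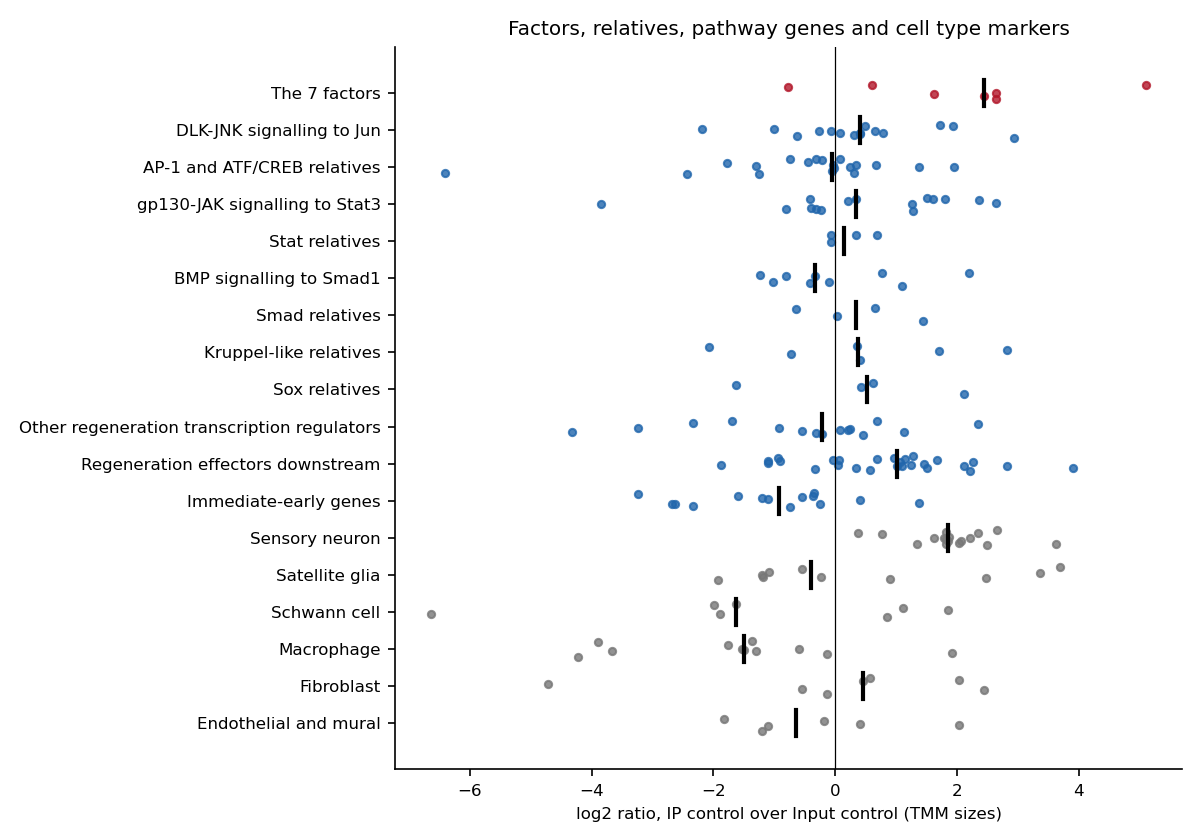
Log2 ratio of IP control to Input control on TMM library sizes (horizontal axis) for the 7 factors (red), their relatives, pathway and target lists (blue) and cell type markers (grey), 1 dot per gene with the list median as a black bar. The factors have a median of 2.44 and sensory neuron markers of 1.85, whereas immediate-early genes have -0.92 and macrophage markers -1.50.

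Of the regeneration effectors, genes that rise in neurons after axotomy and include known targets of these factors, 18 of 27 were higher in IP and 5 lower in libraries labelled shGpr151 and 16 and 5 in control. Their median log2 ratio was 1.01 in libraries labelled shGpr151 and 1.02 in control. Anxa2, an annexin, had 0.77 (0.70 to 0.84) in libraries labelled shGpr151 and 1.47 (1.39 to 1.55) in control, and Hspb1, a small heat shock protein gene activated by Atf3, 1.30 (1.17 to 1.44) in libraries labelled shGpr151 and 1.07 (0.94 to 1.20) in control. The neuropeptide genes Gal and Npy, which axotomy switches on, were lower on TMM sizes, Gal at -0.89 (-0.97 to -0.81) in libraries labelled shGpr151 and -0.90 (-0.97 to -0.82) in control, and Npy at -1.89 (-1.98 to -1.80) in libraries labelled shGpr151 and -1.87 (-1.95 to -1.80) in control, though both were above 0 on library totals.

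Immediate-early genes ran the other way on TMM sizes, though their median is above 0 on library totals, with 1 of 14 higher and 7 lower in IP in libraries labelled shGpr151 and 1 and 8 in control. The one that was higher was Fos, the AP-1 partner of Jun, at 2.05 in libraries labelled shGpr151 and 1.37 in control. Ccn1, a matricellular target of YAP, was lower at -3.31 (-3.65 to -2.97) in libraries labelled shGpr151 and -3.23 (-3.52 to -2.95) in control, and its relative Ccn2 at -0.64 (-0.99 to -0.29) in libraries labelled shGpr151 and -1.21 (-1.52 to -0.89) in control, though Ccn2 was above 0 on library totals. Ier3 was not called at -0.51 in libraries labelled shGpr151 and -0.24 in control. Among 15 tested other regulators of regeneration 3 were higher and 5 lower in each treatment, including the circadian repressor gene Bhlhe41 at 2.61 (2.21 to 3.05) in libraries labelled shGpr151 and 2.35 (1.96 to 2.76) in control, the oxidative stress factor gene Nfe2l2 at 1.35 (0.73 to 2.04) in libraries labelled shGpr151 and 1.13 (0.57 to 1.74) in control, Yap1, a Hippo pathway coactivator, at -4.04 (-4.35 to -3.73) in libraries labelled shGpr151 and -4.32 (-4.62 to -4.03) in control, and the acetyltransferase gene Crebbp at -2.58 (-2.78 to -2.39) in libraries labelled shGpr151 and -3.23 (-3.42 to -3.05) in control.

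The comparison of treatments asks whether the factors differ with the hairpin. In IP 0 of 7 members were called, whereas 2.29% of all tested genes were called higher and 1.08% lower, and their log2 ratios lay between -0.16 and 0.18 with a median of 0.02, against 0.0034 for all genes. Klf6 had the largest positive ratio, 0.18 (0.13 to 0.24), or 1.14-fold, followed by Jun at 0.13 (-0.01 to 0.27). Stat3 had -0.16 (-0.33 to 0.0004), Klf7 -0.15 (-0.29 to -0.02) and Atf3 -0.12 (-0.22 to -0.02). Smad1 had 0.10 (-0.22 to 0.42) and Sox11 0.02 (-0.17 to 0.22). A 1.5-fold difference in either direction, which is 0.58 on this scale, lies outside the counting interval of each of the 7 members. These intervals concern the difference between 1 library and another, and set no bound on an effect of the hairpin. With the 12 columns treated as replicates, edgeR and DESeq2 each called 1 member, Klf6, higher, and they called 3.72% (edgeR) and 1.28% (DESeq2) of all genes higher. DESeq2 gave no verdict here for Sox11 and Smad1. Such tests on reads compare these libraries and not the conditions.

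In Input, where the members' counts were lower, 0 of 7 were called either, whereas 4.32% of all tested genes were called higher and 4.78% lower. Klf7 had the largest positive ratio, 0.53 (0.04 to 1.03), or 1.45-fold, just under the threshold. Smad1 had -1.23 (-2.63 to 0.03) on 8 counts in the library labelled shGpr151 and 19 in control, so its interval holds both no difference and a level more than 2-fold lower. Sox11 had 0.38 (-0.42 to 1.19), Jun -0.08 (-0.39 to 0.22), Klf6 -0.21 (-0.78 to 0.35), Atf3 -0.23 (-0.65 to 0.19) and Stat3 -0.26 (-0.47 to -0.05). The median was -0.21, against -0.066 for all genes.

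The Input calls moved with single columns. Klf7 was called higher in 8 of the 12 settings that leave out 1 column, at 0.63 without the first column of Input shGpr151, 0.72 without the third of Input control and 0.59 without any 1 of the 6 IP columns, which act only through the TMM sizes. Smad1 was called lower without the first column of Input shGpr151, at -2.06, and without the third of Input control, at -1.46.

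**Figure D4:**
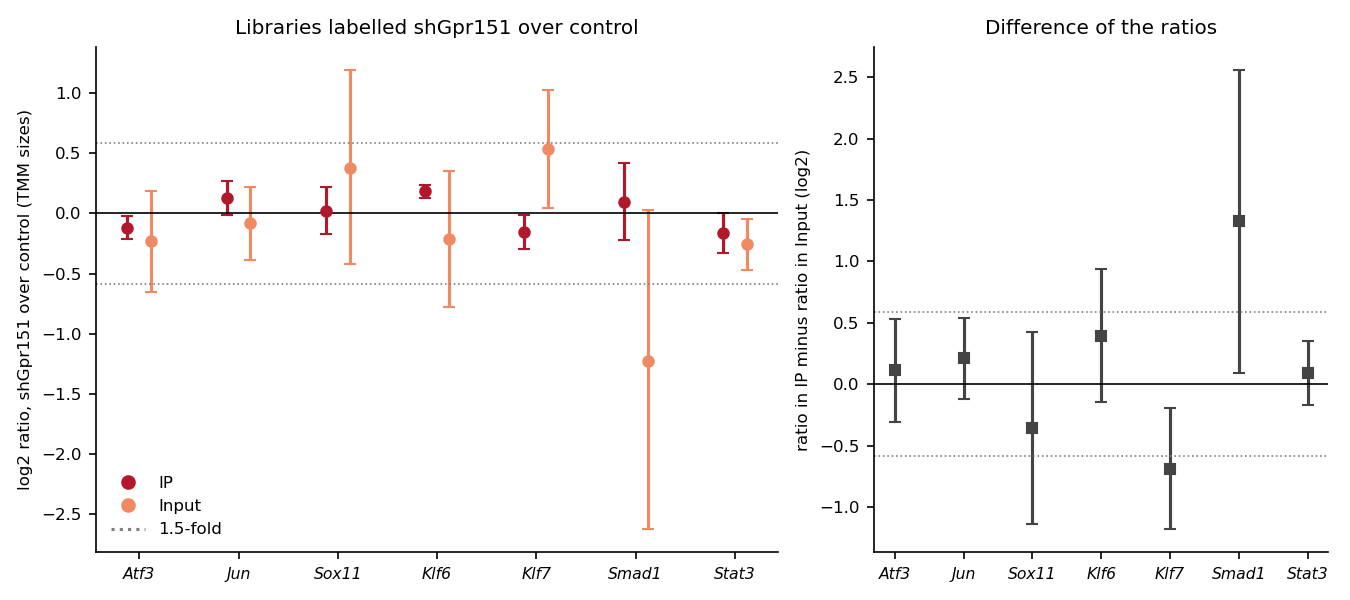
Left, log2 ratio of the libraries labelled shGpr151 to control on TMM library sizes for the 7 factors in IP (red) and Input (orange), with 95% counting intervals and dotted lines at 1.5-fold. Right, the treatment ratio of IP minus that of Input; Smad1, at 1.33, and Klf7, at -0.69, have intervals that exclude 0, and the other 5 do not.

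The difference between the treatment ratios of IP and Input (IP minus Input) was called for 2 members, 1 in each direction, whereas 8.73% of all tested genes were called higher and 7.13% lower. It was higher for Smad1, at 1.33 (0.09 to 2.56), and lower for Klf7, at -0.69 (-1.18 to -0.20). The same quantity is the ratio of IP to Input in libraries labelled shGpr151 minus that in control. Without single columns Smad1 ranged from 0.94 to 2.15 and lost its call in 6 of 12 settings, namely without the second column of Input shGpr151 (0.94), the third of Input shGpr151 (1.15), the second of Input control (0.99), the second of IP shGpr151 (1.22), the first of IP control (1.17) and the second of IP control (1.22). Klf7 ranged from -0.87 to -0.50 and lost its call without the second column of Input shGpr151 (-0.55) and the second of Input control (-0.50). On the 12 columns edgeR and DESeq2 called Klf7 but not Smad1, and with the assumed coefficient of 20% neither was called. Klf6 had 0.40 (-0.14 to 0.94), Jun 0.21 (-0.12 to 0.54), Atf3 0.11 (-0.30 to 0.53), Stat3 0.09 (-0.17 to 0.36) and Sox11 -0.35 (-1.13 to 0.43), none called.

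Between treatments in IP, where 2.29% of all tested genes were called higher and 1.08% lower, each of the 3 signalling lists had 1 called gene. In Input the shares of all tested genes were 4.32% higher and 4.78% lower. In the gp130-JAK list 0 of 15 were higher and 1 lower, the phosphatase gene Ptpn2 at -0.91 (-1.60 to -0.25), and 1 was lower in Input, the JAK kinase gene Tyk2 at -0.63, with 103 counts in Input shGpr151 and 162 in Input control. Lifr, with 4023 counts in IP shGpr151 and 3685 in IP control, had 0.45 (0.39 to 0.52) in IP and -0.47 (-0.79 to -0.15) in Input, neither past 1.5-fold, but their difference was called at 0.92 (0.60 to 1.24). In the DLK-JNK list 1 of 15 was lower in IP, the JNK2 gene Mapk9 at -0.61 (-1.03 to -0.21), and 1 was lower in Input, the JNK1 gene Mapk8 at -0.94 (-1.58 to -0.32). In the BMP list 1 of 9 was higher in IP, the ubiquitin ligase gene Smurf2 at 0.67 (0.05 to 1.30), and 1 was higher in Input, Id2 at 0.63 (0.22 to 1.05). For the difference of these ratios, 0 of 9 BMP genes were called higher and 2 lower, Id1 and Id2. In the DLK-JNK list 1 was called higher for it, Mapk8 at 1.32 (0.60 to 2.04), and 0 lower. Of all tested genes 8.73% were called higher and 7.13% lower for this difference.

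Among relatives of the members, Stat6, which interleukin 4 activates, was higher in IP at 0.59 (0.05 to 1.13). Mafg, a small Maf protein gene, was higher in IP at 0.61 (0.26 to 0.95) and lower in Input at -1.07 (-2.02 to -0.17), and Creb1, the cyclic AMP response factor gene, was lower in IP at -0.63 (-1.26 to -0.02). Atf2 and Stat5b were lower in Input, at -1.51 (-2.72 to -0.44) and -1.10 (-2.28 to -0.02). Of the Kruppel-like, Sox and Smad relatives 0 of 6, 0 of 4 and 0 of 4 were called in IP, and likewise in Input. Among 27 regeneration effectors 0 were called in IP, and 1 was lower in Input, the calcium channel subunit gene Cacna2d1 at -0.65 (-1.24 to -0.07).

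For each member the 3 genes with the most similar pattern over the 4 libraries were taken, by the smallest Euclidean distance between log2 CPM on TMM sizes, each centred on its own mean, among 7334 genes with at least 100 counts in all. They were Armcx3, Ttc39c and Sdf4 for Atf3, Ppp2r1a, Nptn and Dpp3 for Jun, and Reep5, Gpnmb and Ddx23 for Stat3. For Smad1 they were Bloc1s3, Tomm34 and Smc2, for Sox11 Pard3, Dmtn and Zdhhc21, for Klf7 Gpd2, Ccser2 and Fam241b, and for Klf6 Kif21a, Col6a3 and Degs1. The nearest gene stood at a distance of 0.040 from Jun, 0.048 from Stat3, 0.055 from Smad1, 0.064 from Klf7, 0.082 from Sox11 and 0.092 from Atf3, but 0.288 from Klf6. Klf6 thus had the least close neighbour of the members, and none of the members was among the 3 nearest genes of another.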

How the data were processed

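RNA was measured in 12 samples of adult mouse DRG neurons, 3 each of IP and Input with AAV-shGpr151 or AAV-control. Per the labels' protocols a nanopore kit for barcoded PCR cDNA was used. Minimap2 and Salmon, and as builds GRCm39 and mm39, appear without version or role in the submitters' processing notes. The authors deposited raw counts of 9073 Ensembl identifiers, whole numbers with a lowest value of 1, so genes without a count in some column are not analysed here. Symbols matched 9061 identifiers. Neither the handling of reads from related or overlapping genes, nor strand, nor transcript length is given in the sources used here, and levels are therefore not compared between genes.

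The 3 columns of a group were summed, because they differed by little more than counting noise, and column totals ran from 1094523 to 2111544. TMM sizes came from edgeR 4.0.16 (R 4.3.3) on the 8312 genes kept by filterByExpr at a minimum count of 10. A gene could pass this filter through the columns of a single group. Intervals are exact Poisson for levels, exact conditional binomial (Clopper-Pearson) for ratios and Wald for differences of ratios. Calls need 1.5-fold and an interval that excludes 0. Results were recomputed with RLE sizes, on library totals, unfiltered, with a filter at a mean of 20 counts, with a 2-fold rule, with edgeR's quasi-likelihood model (with and without replicate number) and DESeq2 1.42.0 on the 12 columns, with edgeR at a biological coefficient of variation (BCV) assumed to be 20%, and without each column in turn. Unfiltered, at a mean of 20 counts and with the 2-fold rule, the main ratios were kept, and only the genes tested or called could change. The calculation was tested on simulated counts. These were Poisson counts with no other variation between samples and, apart from genes set to change, the same composition in every group. They therefore cannot test the TMM shift between IP and Input.

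Named were the members, the 3 genes most like each and, of each list described, the up to 4 tested genes with the most counts in all, and further list genes where a count was small or a call was to be identified, chosen after their values were seen. Members and lists were chosen with earlier results of these data known. Promoter sequences are RefSeq's, build GRCm38.p6, matched by symbol for all 7 members, and no coordinates are given for the counts. Figures were drawn with matplotlib 3.10.9.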

Additional observations from a re-analysis of the deposited data

Results flagged for a closer look

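For 2 members, 1 in each direction, the difference between the treatment ratios of IP and Input was called. Of all tested genes 8.73% were called higher and 7.13% lower for this difference. For Smad1 the ratio in IP minus that in Input was 1.33 (0.09 to 2.56), and it rests on 8 counts in Input shGpr151 and 19 in Input control. Smad1 had passed the filter on low counts only through its IP columns. For Klf7 it was -0.69 (-1.18 to -0.20), with 87 counts in Input shGpr151 and 61 in Input control. Smad1 lost its call in 6 of the 12 settings that leave out 1 column, and Klf7 in 2. On the 12 columns edgeR and DESeq2 called Klf7 but not Smad1. Each value compares single libraries and has no replicate check.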

How the results depend on the processing

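Counts are given as higher and lower in that order, for the libraries labelled shGpr151 against control unless IP against Input is named. Of the values of single members under the settings that kept all columns, 301 lay within the main interval and 12 moved outside it. The other 2 changed sign, Stat3 in IP against Input on library totals (1.52 in libraries labelled shGpr151 and 1.40 in control). The 301 include the unfiltered setting, the mean of at least 20 counts and the 2-fold rule, which leave each ratio unchanged by construction. On library totals the members' median for IP against Input was 4.49 in libraries labelled shGpr151 and 4.62 in control, 0 members were lower, and the all-gene counts were 6649 and 842 in libraries labelled shGpr151 and 6774 and 806 in control. With the 2-fold rule Jun and Stat3 lost their calls in IP against Input in both treatments, so that 5 members were higher and 0 lower, and 0 had a lower difference of ratios, and the all-gene counts were 24 and 19 in IP, 132 and 167 in Input, and 362 and 218 for the difference of ratios. With an assumed BCV of 20% Jun and Stat3 again lost these calls in both treatments, leaving 5 higher and 0 lower, and 0 were higher or lower for the difference of ratios. The all-gene counts were then 0 and 0 in IP, 1 and 1 in Input, 1 and 0 for the difference, and 1553 higher in IP against Input in control. A mean of at least 20 counts gave 61 and 17 genes in IP and 264 lower in Input, with fewer genes tested. Tests on the 12 columns treat near-identical columns as replicates. EdgeR's quasi-likelihood test called 1 member higher in IP and 0 higher for the difference, and 309 and 413 genes in IP, 691 and 720 in Input and 450 higher for the difference. With the replicate number as a block it called 1 member higher in IP and 0 higher for the difference, and 315 and 421 genes in IP, 685 and 720 in Input and 454 higher for the difference. Deviations of same-numbered columns of different groups correlated at -0.010 to 0.020. Columns that differ by little more than counting noise cannot show a pairing, so whether the numbers pair the samples is not known. DESeq2 called 1 member higher in IP, where it gave no verdict for Sox11 and Smad1, and 0 higher for the difference. It called 106 and 337 genes in IP, 608 higher in Input and 282 higher for the difference. Leaving out 1 column gave 0 to 1 members higher and 0 to 1 lower in Input, 0 to 1 higher and 0 to 1 lower for the difference, and 0 to 1 lower in IP against Input in libraries labelled shGpr151, where Stat3 lost its call without the first column of Input shGpr151 (-0.57). The cause of these changes was not tested. Depth limits Smad1 and Sox11 in Input most.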
